A study of Mus musculus with 23 samples.

Results

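Chemokine ligands are the secreted or membrane-bound peptides that draw leukocytes along a gradient through receptors coupled to G proteins. The genes described here are the 35 whose name on the array was Ccl or Cxcl with a number, or Cx3cl1 or Xcl1, out of 34797 gene names. Each was read by its brightest probe over the 23 arrays, and 30 of the 35 were well above background on at least 7 arrays and were tested among 28231 genes. The name rule used no group and no difference. The names are those of the array's design, and the Ccr7 ligands of the Ccl21 family and Ccl27b were not analysed here.

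Messenger RNA was measured on 1-colour Agilent arrays in circumvallate papillae (CVP), the taste papillae at the back of the tongue, of male C57Bl6/j mice. The 8 DIO-R samples are read as obese mice given 60% of the energy they would take freely, since the labels leave DIO-R undefined. The 8 DIO samples came from mice on an obesogenic diet high in saturated fat, and the 7 Lean samples from mice on chow with 3% fat by weight. The epithelium of all samples was freed with elastase and dispase before dissection, and 25 ng of total RNA was labelled with Cy3; neither the length of the diets nor whether each sample is 1 animal is stated, so p-values measure the spread between samples, which may be technical. Markers of the tissue were present, with 11 of 11 taste cell markers and 14 of 14 differentiated keratinocyte markers well above background on at least 7 arrays. The same filter passed 28231 of all 34797 gene names. It also passed 8 of 8 skeletal muscle, 6 of 6 adipocyte and 15 of 15 macrophage and dendritic cell markers. These counts therefore do not tell tissues apart, and cells outside the epithelium may contribute signal.

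Chemokines are classed by the spacing of their first cysteines into CC, CXC, CX3C and C families. Inflammatory ligands are made when cytokines or microbial products activate transcription factors such as NF-kB, and homeostatic ligands are made steadily and place lymphocytes and stem cells in tissue. CXC ligands with the residues Glu-Leu-Arg before the cysteines (ELR ligands) attract neutrophils through Cxcr2, the Ccl2 family attracts monocytes through Ccr2, and Cxcl9, Cxcl10 and Cxcl11 are induced by interferon and attract activated T cells through Cxcr3. In stratified and mucosal epithelia, keratinocytes themselves make several ligands, among them Cxcl14, Ccl20 and Ccl27.

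Values are log2 intensities relative to the 75th percentile of the same array, so 0 is the brightness of that percentile and levels of different probes cannot be ranked as RNA amounts. Differences are log2 differences of group means ± SE from limma, with p-values adjusted by Benjamini-Hochberg over all 28231 genes. The DIO samples enter both the comparison with Lean and the comparison of DIO-R with DIO, and the DIO-R and Lean samples enter the third, so the 3 comparisons are not independent.

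The ligands that carry the group differences and the within-group patterns are shown here by sequence. The following stretches are the first 30 bases of the probes of Cxcl5, Ccl3 and Cxcl13, the ligands with the lowest p-values, and a 30-base stretch of the Cxcl11 probe, shown because its letters recur elsewhere. They lie, on the strand of the gene and with mm9 positions from the scanner annotation, at chr5:91190490-91190519 for Cxcl5, chr11:83461388-83461417 for Ccl3, chr5:96389861-96389890 for Cxcl13 and chr5:92788583-92788612 for Cxcl11. Exon, intron and UTR limits of mm9 were not used.
Cxcl5: gctgagatatttagatgtctgtagtgtgtc
Ccl3: catgaactgacaaatgtacaatagatgctt
Cxcl13: gatttattgtcttgcattaaaaccagtaac
Cxcl11: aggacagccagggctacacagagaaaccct

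The Cxcl11 probe shares runs of 20 bases with 19 of 27025 RefSeq promoters and with 7 probes named for other genes. No other probe used for a ligand here shares such a run with a promoter of another gene. Cxcl11 is listed as a transcribed pseudogene in the RefSeq table of GRCm38.p6.

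Promoters, from 250 bases before to 50 bases after the gene start, were held in the RefSeq table of build GRCm38.p6 for 24 of the 35 ligands. The NF-kB motif GGGNNNTTCC, sought on both strands with overlapping matches counted, was found in 7 of these 24 (Ccl1, Ccl9, Ccl20, Cxcl1, Cxcl2, Cxcl3 and Cxcl10), against 5.52% of all 27025 promoters. The interferon response motif GAAANNGAAA, sought the same way, was found in 3 of the 24 (Ccl19, Cxcl10 and Cxcl14), against 3.49% of all promoters. The promoters of the neutrophil attractants Cxcl1, Cxcl2 and Cxcl3 and of the interferon-induced Cxcl10 are printed as examples that hold matches. These genes varied together or in single arrays below. Cxcl9 and Ccl6, which also did so, and Ccl3, which passed below, had 0 matches to either motif. Cxcl5, Ccl2 and Ccl7 were not among the 24. Whether the motifs relate to the variation was not tested. Capitals mark matches to either motif. They lie at chr5:90890995-90891294 (Cxcl1, plus strand), chr5:90903649-90903948 (Cxcl2, plus strand), chr5:90785851-90786150 (Cxcl3, plus strand) and chr5:92348840-92349139 (Cxcl10, minus strand).
Cxcl1: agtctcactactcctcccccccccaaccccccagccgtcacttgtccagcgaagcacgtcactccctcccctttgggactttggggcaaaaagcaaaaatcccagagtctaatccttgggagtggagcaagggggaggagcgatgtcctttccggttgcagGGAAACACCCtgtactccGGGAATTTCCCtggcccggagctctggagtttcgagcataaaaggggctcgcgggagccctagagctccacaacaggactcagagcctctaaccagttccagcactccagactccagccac
Cxcl2: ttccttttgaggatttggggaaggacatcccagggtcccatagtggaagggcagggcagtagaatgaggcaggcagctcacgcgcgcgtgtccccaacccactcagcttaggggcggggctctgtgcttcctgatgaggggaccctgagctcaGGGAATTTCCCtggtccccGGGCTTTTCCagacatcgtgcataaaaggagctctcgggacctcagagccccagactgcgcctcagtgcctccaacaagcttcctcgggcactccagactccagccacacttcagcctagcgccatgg
Cxcl3: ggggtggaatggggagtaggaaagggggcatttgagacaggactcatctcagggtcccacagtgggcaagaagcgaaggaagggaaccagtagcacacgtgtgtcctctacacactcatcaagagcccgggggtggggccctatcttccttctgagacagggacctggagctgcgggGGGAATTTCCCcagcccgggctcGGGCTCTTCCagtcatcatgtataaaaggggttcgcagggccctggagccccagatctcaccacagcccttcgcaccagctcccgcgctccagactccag
Cxcl10: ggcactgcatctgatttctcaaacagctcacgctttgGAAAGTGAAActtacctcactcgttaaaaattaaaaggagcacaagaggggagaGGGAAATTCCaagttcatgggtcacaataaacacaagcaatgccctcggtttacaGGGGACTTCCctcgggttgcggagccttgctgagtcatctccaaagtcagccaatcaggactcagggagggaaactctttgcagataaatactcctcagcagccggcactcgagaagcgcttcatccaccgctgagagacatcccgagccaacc

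The NF-kB matches begin 89, 71 and 70 bases before the gene start in Cxcl1, 97, 96 and 78 bases in Cxcl2 and 73, 72 and 50 bases in Cxcl3, where the neighbouring pair is 1 stretch that matches on both strands. In Cxcl10 they begin 159 and 104 bases before the start, and the interferon response match begins 213 bases before it. A match says that these letters are present, not that a factor binds there.

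By the probe used, 28 of the 30 ligands tested were well above background on all 23 arrays, Cxcl2 on 22 and Cxcl9 on 18. Ccl20, the epithelial attractant of Ccr6-bearing cells, and Ccl26 were well above background on 0 arrays. Ccl22, a Ccr4 ligand of dendritic cells, and Cxcl15 were so on 1 array each, and Xcl1, the C family ligand of T and NK cells, on 3. The 6 ligands with the brightest probes were Cxcl11, Ccl6, Cxcl5, Cxcl14, Cxcl17 and Cxcl12, with means over all arrays of 8.55, 4.80, 4.39, 4.08, 2.96 and 2.46, an order that holds for probes and not for RNA amounts.

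DIO-R papillae held less Cxcl5 and more Ccl3 than Lean papillae, and these were the 2 ligands that passed at an adjusted p under 0.05, where 0.128% of all genes did. One was higher (Ccl3, where 0.0531% of all genes were) and one lower (Cxcl5, where 0.0744% were). Both also had groups that did not overlap, as 0.305% of all genes did. No ligand passed between DIO and Lean, where 0.00354% of all genes passed, all of them higher (0% lower), or between DIO-R and DIO, where 0.0602% passed, 0.0213% higher and 0.039% lower. No ligand had groups free of overlap in these comparisons, against 0.12% and 0.0886% of all genes. The lowest adjusted p-values of a ligand in the limma fit were 0.294 for DIO against Lean and 0.48 for DIO-R against DIO.

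At an unadjusted p under 0.05, 9 of the 30 ligands differed between DIO and Lean, which is 30% against 8.95% of all genes. Of these 9, 5 were higher (Ccl3, Ccl7, Ccl12, Ccl27a and Cxcl12, 4.05% of all genes) and 4 lower (Ccl28, Cxcl2, Cxcl5 and Cxcl13, 4.9% of all genes). Between DIO-R and DIO there were 7 such ligands, 23.3% against 9.72% of all genes. Cxcl2, Cxcl3 and Ccl3 were higher (5.94% of all genes) and Cxcl5, Cxcl12, Ccl9 and Ccl27a lower (3.78% of all genes). Between DIO-R and Lean there were 8, which is 26.7% against 8.94% of all genes, with Ccl2, Ccl3, Ccl4, Ccl7, Ccl12 and Cx3cl1 higher (4.43% of all genes) and Cxcl5 and Cxcl13 lower (4.51% of all genes). Several ligands varied together within groups, as given below, so these counts are descriptions and not tests of the family.

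The ligands as a whole lay near 0. Their median difference was 0.07 for DIO against Lean (-0.04 over all genes), -0.07 for DIO-R against DIO (0.01 over all genes) and 0.05 for DIO-R against Lean (-0.02 over all genes). In the same order 18, 13 and 17 of the 30 had a difference above 0, which 41.1%, 51.6% and 44.5% of all genes had.

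**Figure D1:**
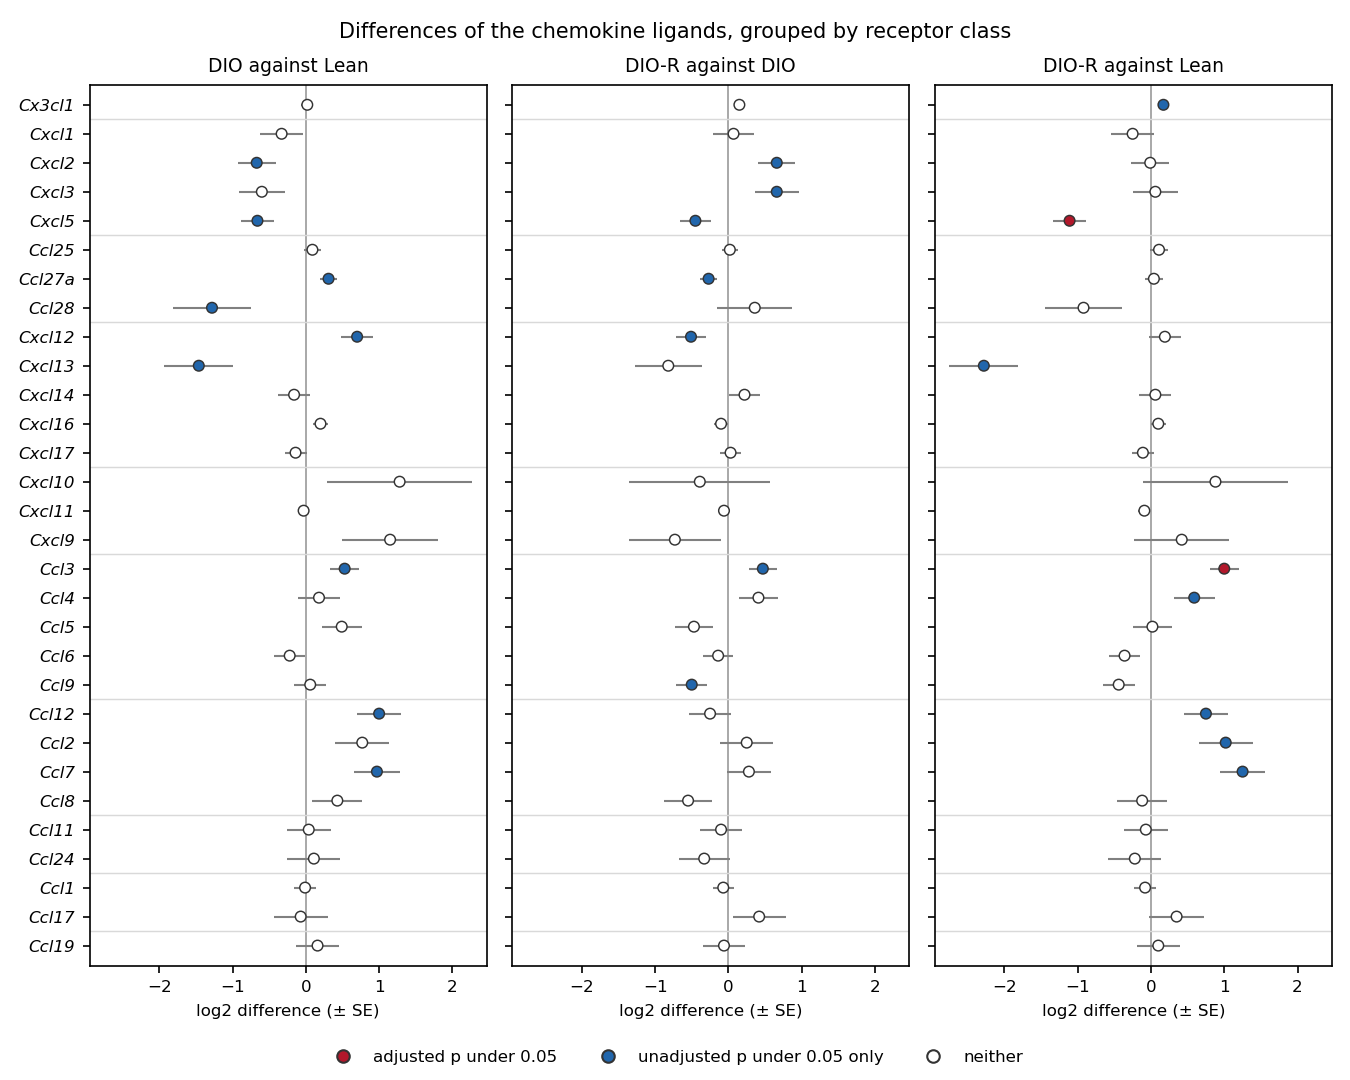
Log2 differences (x axis, ± SE) of the 30 ligands tested, in rows grouped by receptor class, for DIO against Lean, DIO-R against DIO and DIO-R against Lean. The 2 red points, Cxcl5 at -1.11 and Ccl3 at 1.00, are the ligands that passed at an adjusted p under 0.05, and blue points had an unadjusted p under 0.05 only.

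Of the ELR ligands of Cxcr2, Cxcl5 was the one that passed in a comparison, and the other 3 tested did not. Cxcl5 is a neutrophil attractant that epithelial cells release in mice. Its level had a lowest, median and highest value of 3.03, 3.93 and 4.48 in DIO-R, of 3.84, 4.27 and 5.21 in DIO, and of 4.80, 4.94 and 5.38 in Lean. Every DIO-R sample lay below every Lean sample, and the DIO samples spanned the gap between them. The mean was 3.89 ± 0.49 in DIO-R (SD, n = 8) and 5.00 ± 0.21 in Lean (SD, n = 7), a log2 difference of -1.11 ± 0.22, or 2.16-fold lower, with a limma adjusted p of 0.0338. Within slides 1, 2 and 3 the difference was -0.89, -1.12 and -1.31. DIO against Lean differed by -0.66 ± 0.22 (adjusted p = 0.356 in limma), and 7 of 8 DIO samples lay below the Lean mean. DIO-R against DIO differed by -0.45 ± 0.21 (adjusted p = 0.504 in limma).

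The call on Cxcl5 between DIO-R and Lean rests near its threshold. Leaving out 1 array at a time gave adjusted p-values of 0.0151 to 0.107 and kept the call for 12 of 23 arrays, with differences of -1.20 to -0.99. The arrays whose omission lost it were Lean 4, 5, 6, 7, 9 and 10 and DIO-R 2, 5, 6, 8 and 10.

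**Figure D2:**
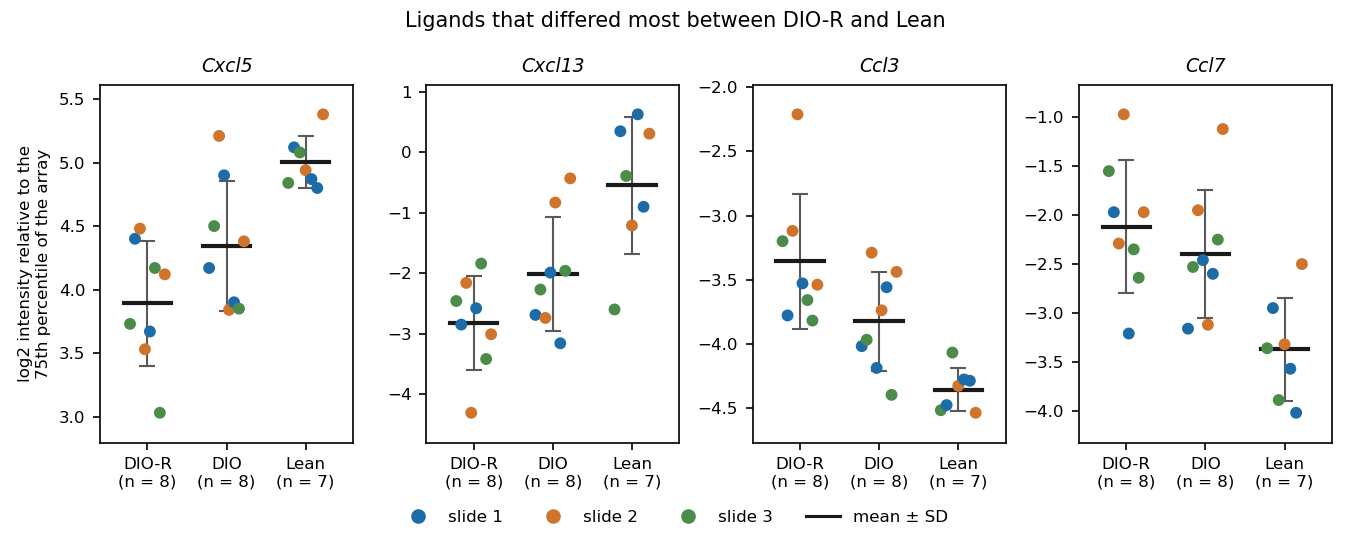
Level of Cxcl5, Cxcl13, Ccl3 and Ccl7 in every array (y axis, log2 intensity relative to the array's 75th percentile), with DIO-R, DIO and Lean from left to right, points coloured by slide and bars for the mean ± SD. Cxcl5 and Ccl3 separate DIO-R from Lean completely, while 1 Lean sample of Cxcl13 (-2.60) lies among the DIO-R samples and the Ccl7 groups overlap.

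Cxcl2 and Cxcl3, inflammatory neutrophil attractants encoded on chromosome 5, as are Cxcl1, Cxcl5 and Cxcl15, had a DIO mean under both other means. Cxcl2 had a lowest, median and highest value of -4.67, -3.92 and -3.0 in DIO-R, -5.31, -4.61 and -3.41 in DIO, and -4.10, -3.86 and -3.43 in Lean. The DIO samples reached lower than either other group but overlapped both. Its difference was -0.67 ± 0.26 for DIO against Lean (limma adjusted p = 0.442), 0.66 ± 0.25 for DIO-R against DIO (limma adjusted p = 0.48) and -0.01 ± 0.26 for DIO-R against Lean. On slide 2 the Cxcl2 difference of DIO from Lean was -0.22, against -0.73 and -1.32 on slides 1 and 3. Cxcl2 is dim, and with the model-based background correction normexp its differences were -0.21 for DIO against Lean and 0.17 for DIO-R against DIO. Normexp was run with an added offset of 50, which by itself shrinks the differences of dim probes.

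Cxcl3 had a lowest, median and highest value of -1.65, -0.82 and 0.21 in DIO-R, -2.70, -1.24 and -0.20 in DIO, and -1.22, -0.63 and -0.51 in Lean. Its difference was 0.66 ± 0.30 for DIO-R against DIO (limma adjusted p = 0.501) and -0.60 ± 0.31 for DIO against Lean (limma adjusted p = 0.593). Cxcl1, another neutrophil attractant, ranged from -2.16 to -0.61 in DIO-R, -2.59 to -0.72 in DIO and -1.99 to -0.47 in Lean, and had no unadjusted p under 0.05, with 0.07 ± 0.28 for DIO-R against DIO and -0.33 ± 0.29 for DIO against Lean. All 4 ELR ligands tested had a difference under 0 for DIO against Lean, from -0.67 to -0.33, and none passed. Their receptor Cxcr2 differed by -0.39 ± 0.20 in that comparison (limma adjusted p = 0.576).

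Markers of differentiated keratinocytes moved with these ligands between DIO and Lean. All 14 were lower in DIO, with a median of -0.51 and none passing, and the list's mean level, centred on each gene's mean, ranged from -1.19 to 0.47 in DIO and -0.51 to 0.91 in Lean. In DIO-R against Lean 13 of 14 were lower with a median of -0.15, where Cxcl5 stood at -1.11. Of 7 neutrophil markers, 3 were higher and 4 lower in DIO than in Lean and none passed. The part of these cells in the ligand differences was not tested, and in bulk tissue fewer cells of a type and less RNA per cell cannot be told apart.

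**Figure D3:**
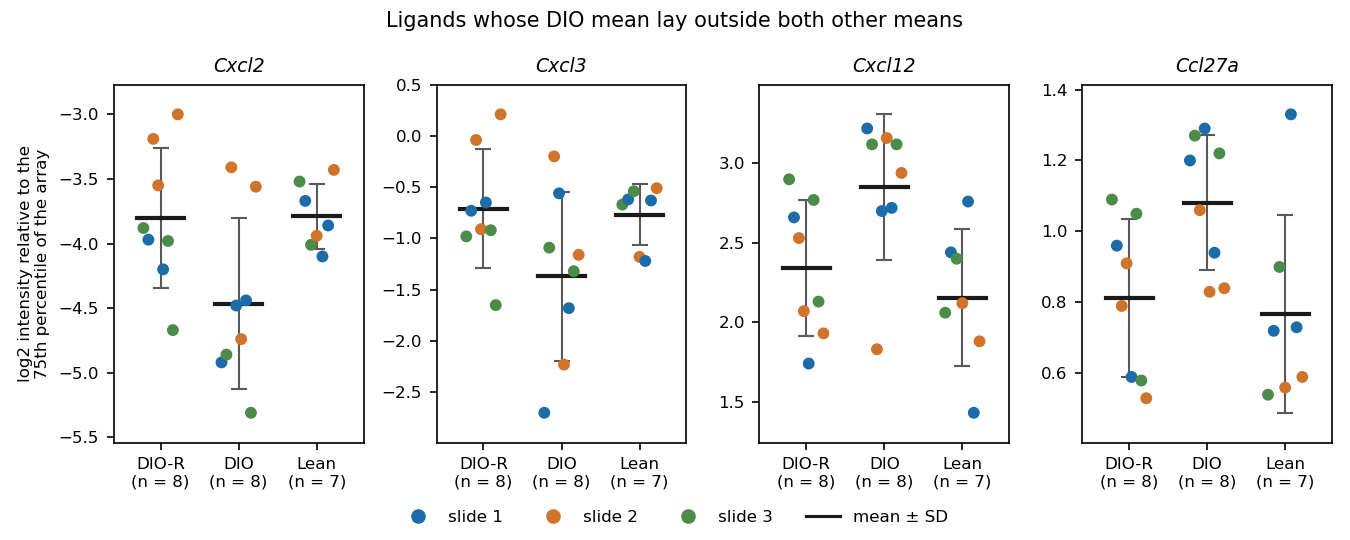
Level of Cxcl2, Cxcl3, Cxcl12 and Ccl27a in every array (y axis, log2 intensity relative to the array's 75th percentile), with DIO-R, DIO and Lean from left to right, points coloured by slide and bars for the mean ± SD. The DIO mean is the lowest for Cxcl2 and Cxcl3 and the highest for Cxcl12 and Ccl27a, and the groups overlap for all 4.

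Within groups, the pairs of ELR ligands that were computed varied together from sample to sample. Cxcl5 was not paired with Cxcl2 or Cxcl3, nor Cxcl1 with Cxcl3. After removal of group means, Cxcl1 and Cxcl5 correlated with Pearson's r = 0.80 and Spearman's rho = 0.85 over 23 samples (permutation p adjusted over the 9 pairs computed 6e-05 and 4.5e-05). Within slides 1, 2 and 3 this r was 0.82, 0.79 and 0.92, and it was 0.82 without the 2 samples farthest from the median of Cxcl1. Cxcl2 and Cxcl3 correlated with r = 0.67 and rho = 0.62 (adjusted permutation p = 0.00126 and 0.00486), with 0.62, 0.91 and 0.43 within the slides and 0.61 without the 2 farthest samples. Cxcl1 and Cxcl2 correlated with r = 0.60 and rho = 0.54 (adjusted permutation p = 0.00457 and 0.0148), with 0.56, 0.81 and 0.45 within the slides and 0.54 without the 2 farthest samples. Cxcl1 followed Cxcl5 across samples of a group, and its group means differed by no more than 0.33 while those of Cxcl5 differed by up to 1.11. The test of the difference between these 2 genes was not made.

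Of the 4 ligands of Ccr2, the receptor that draws monocytes out of blood, Ccl2, Ccl7 and Ccl12 had means above the Lean mean in DIO-R and in DIO, and none passed. Ccl7 (monocyte chemoattractant protein 3) had a lowest, median and highest value of -3.21, -2.13 and -0.97 in DIO-R, -3.16, -2.50 and -1.12 in DIO, and -4.02, -3.36 and -2.50 in Lean. All 8 DIO-R and all 8 DIO samples lay above the Lean mean, and both groups overlapped the highest Lean samples. The difference was 1.25 ± 0.31 for DIO-R against Lean (2.39-fold, limma adjusted p = 0.149) and 0.97 ± 0.31 for DIO against Lean (limma adjusted p = 0.341). Within the 3 slides DIO-R against Lean gave 0.92, 1.17 and 1.45.

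Ccl12 (monocyte chemoattractant protein 5, known from mouse) had a lowest, median and highest value of -3.77, -2.59 and -1.63 in DIO-R, -3.10, -2.67 and -0.92 in DIO, and -3.76, -3.35 and -2.86 in Lean. Its difference was 1.00 ± 0.30 for DIO against Lean, the lowest adjusted p of a ligand in that comparison (0.294 in limma), and 0.75 ± 0.30 for DIO-R against Lean (adjusted p = 0.448 in limma). All 8 DIO samples lay above the Lean mean. Ccl2, the founding member, had a lowest, median and highest value of -3.88, -1.87 and -0.50 in DIO-R, -2.91, -2.28 and -0.95 in DIO, and -3.49, -3.10 and -2.04 in Lean. The widest spread was within DIO-R, which held both the lowest and the highest Ccl2 value of the study. Its difference was 1.02 ± 0.37 for DIO-R against Lean (adjusted p = 0.4 in limma) and 0.77 ± 0.37 for DIO against Lean (adjusted p = 0.568 in limma). With normexp the differences from Lean were smaller, at 0.63, 0.34 and 0.62 for Ccl7, Ccl12 and Ccl2 in DIO-R and 0.47 and 0.48 for Ccl7 and Ccl12 in DIO.

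Ccl8 (monocyte chemoattractant protein 2, which in mice also acts on Ccr8) ranged from -1.11 to 1.38 in DIO-R, -0.10 to 2.43 in DIO and -0.45 to 1.11 in Lean, with differences of -0.55 to 0.43 over the 3 comparisons and no unadjusted p under 0.05. All 4 of these ligands were higher in DIO than in Lean, from 0.43 to 1.00, and 3 of 4 were higher in DIO-R than in Lean, with none passing. The receptor Ccr2 differed by 0.50 ± 0.26 for DIO against Lean (limma adjusted p = 0.607).

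Markers of macrophages and dendritic cells, which make and follow these ligands, were higher for 12 of 15 genes in DIO than in Lean, with a median of 0.26. Aif1, a calcium-binding protein of macrophages, passed there (0.95 ± 0.13, limma adjusted p = 0.00775). In DIO-R against Lean 9 of 15 were higher with a median of 0.07. The list's centred level ranged from -0.59 to 0.06 in DIO-R, -0.33 to 0.62 in DIO and -0.46 to 0.12 in Lean, and its part in the ligand differences was not tested.

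Ccl2 and Ccl7 varied together across samples of a group, with r = 0.84 and rho = 0.75 (permutation p adjusted over 9 pairs 4.5e-05 and 0.00033) and r = 0.77 without the 2 farthest samples. Within slides the value was 0.85, 0.92 and -0.01, so the relation did not hold on slide 3. Ccl7 and Ccl8 gave r = 0.54 and rho = 0.46 (adjusted permutation p = 0.0106 and 0.0423), 0.64, 0.45 and -0.31 within slides, and 0.40 without the 2 farthest samples.

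**Figure D4:**
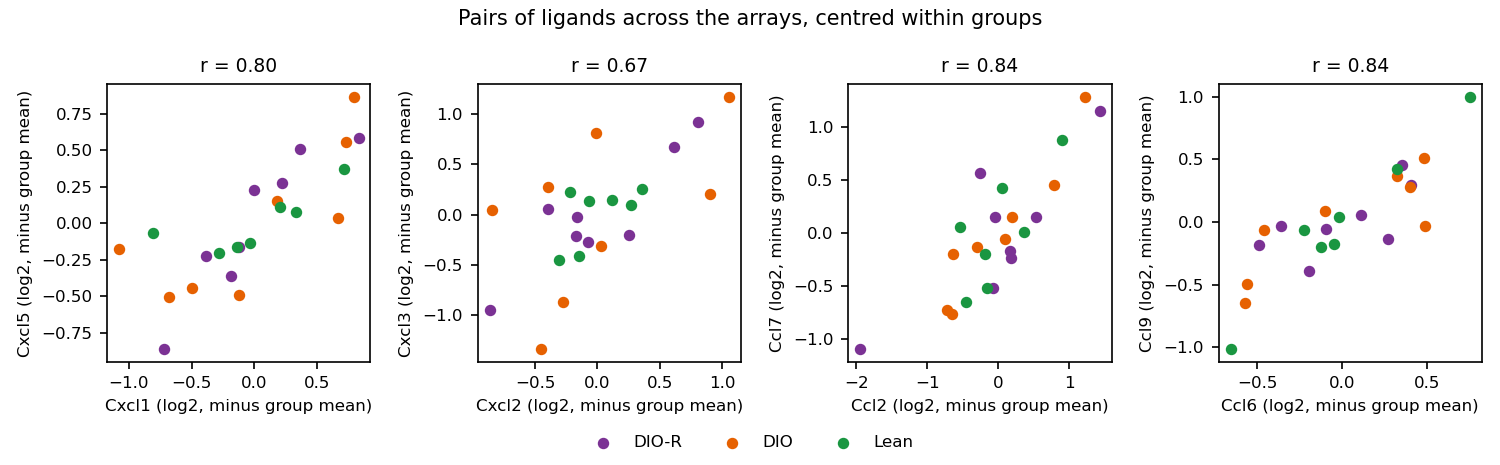
Levels of Cxcl1 and Cxcl5, Cxcl2 and Cxcl3, Ccl2 and Ccl7, and Ccl6 and Ccl9 in the 23 arrays, each minus its group mean (both axes, log2), with points coloured by group. The points rise along a line in every panel, with r of 0.80, 0.67, 0.84 and 0.84, and samples of all 3 groups are spread along it.

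Among ligands of Ccr1 and their relatives, Ccl3 (macrophage inflammatory protein 1-alpha) passed between DIO-R and Lean. Ccl3 had a lowest, median and highest value of -3.82, -3.53 and -2.21 in DIO-R, -4.40, -3.86 and -3.29 in DIO, and -4.54, -4.33 and -4.07 in Lean. The DIO-R and Lean samples did not overlap, and DIO lay between them and overlapped both. The mean was -3.36 ± 0.53 in DIO-R (SD, n = 8) and -4.36 ± 0.17 in Lean (SD, n = 7), a log2 difference of 1.00 ± 0.20, or 2-fold, with a limma adjusted p of 0.0418. Within slides 1, 2 and 3 it was 0.70, 1.48 and 0.73. DIO against Lean gave 0.53 ± 0.20 (limma adjusted p = 0.423) and DIO-R against DIO 0.47 ± 0.19 (limma adjusted p = 0.492).

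Ccl3 is dim on these arrays, and the size of its difference depends on the background step and on the offset of 50 used with normexp. With normexp the DIO-R against Lean difference was 0.31 with an adjusted p of 0.24 in limma, and in the authors' deposited value table it was 0.58 with an adjusted p of 0.0375. Leaving out 1 array at a time gave 0.84 to 1.07 with adjusted p-values of 0.0298 to 0.115, and the call held for 9 of 23 arrays. It was lost without any 1 of the 7 Lean arrays, DIO-R 2, 4, 6 or 10, or DIO 1, 2 or 7.

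Ccl4, the neighbouring gene to Ccl3 on chromosome 11, had a lowest, median and highest value of -2.88, -2.70 and -1.25 in DIO-R, -3.57, -2.90 and -1.72 in DIO, and -3.54, -2.79 and -2.70 in Lean. Its difference was 0.59 ± 0.28 for DIO-R against Lean (limma adjusted p = 0.539), with all 8 DIO-R samples above the Lean mean. Ccl3 and Ccl4 gave r = 0.54 across samples (adjusted permutation p = 0.0106), but rho was 0.33 (adjusted permutation p = 0.165) r was 0.24 without the 2 farthest samples, and within the slides it was 0.02, 0.53 and 0.31, so the relation rests on those samples.

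Ccl9, a Ccr1 ligand known from rodents, had a lowest, median and highest value of 1.68, 2.03 and 2.53 in DIO-R, 1.93, 2.60 and 3.08 in DIO, and 1.5, 2.45 and 3.51 in Lean. All 8 DIO-R samples lay below the DIO mean, and the difference was -0.50 ± 0.21 (limma adjusted p = 0.495). Ccl6, its close relative with one of the brightest ligand probes, had a lowest, median and highest value of 4.16, 4.65 and 5.05 in DIO-R, 4.21, 4.89 and 5.27 in DIO, and 4.35, 4.96 and 5.76 in Lean, and differed by -0.36 ± 0.21 for DIO-R against Lean (limma adjusted p = 0.647). The 2 genes tracked each other closely, with r = 0.84 and rho = 0.84 (adjusted permutation p = 4.5e-05 for each), 0.71, 0.88 and 0.89 within slides, and 0.79 without the 2 farthest samples.

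Ccl5, a ligand made by T cells and NK cells, ranged from -1.95 to -1.04 in DIO-R, -1.81 to 0.44 in DIO and -1.92 to -0.90 in Lean. It differed by -0.47 ± 0.26 for DIO-R against DIO and 0.49 ± 0.27 for DIO against Lean (limma adjusted p = 0.541 and 0.623). Its highest DIO values, 0.44 and -0.03, were on DIO 10 and DIO 3, both on slide 2. Within slides 1, 2 and 3 the DIO against Lean difference of Ccl5 was 0.13, 1.25 and -0.04. The receptor Ccr1 was well above background on 1 array and was not tested.

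Among the homeostatic and epithelial CXC ligands, Cxcl13 had the largest difference of any ligand, which narrowly missed the threshold. Cxcl13 attracts B cells through Cxcr5 and organises lymphoid follicles. Its level had a lowest, median and highest value of -4.31, -2.71 and -1.84 in DIO-R, -3.16, -2.13 and -0.43 in DIO, and -2.60, -0.39 and 0.63 in Lean. All DIO-R samples lay below the Lean mean, but 1 Lean sample, Lean 3 at -2.60, lay within the DIO-R range. The difference was -2.28 ± 0.47 for DIO-R against Lean (4.87-fold lower, limma adjusted p = 0.0584), -1.46 ± 0.47 for DIO against Lean (limma adjusted p = 0.344) and -0.82 ± 0.46 for DIO-R against DIO (limma adjusted p = 0.547). Without Lean 3 the DIO-R against Lean difference was -2.63 with an adjusted p of 0.00684, and without DIO 6, DIO 10 or DIO-R 7 the adjusted p was 0.0422, 0.04 and 0.0438 in limma. On slide 3 that difference was -1.08, against -2.74 and -2.71 on slides 1 and 2.

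Cxcr5, the receptor of Cxcl13, was well above background on 0 arrays. Of 5 B cell markers, Ms4a1 and Igj were not well above background on enough arrays, and the 3 tested were not called in any comparison, with medians of -0.29 for DIO against Lean and -0.06 for DIO-R against Lean.

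Cxcl12, the ligand of Cxcr4 made by stromal cells, had a lowest, median and highest value of 1.74, 2.33 and 2.90 in DIO-R, 1.83, 3.03 and 3.22 in DIO, and 1.43, 2.12 and 2.76 in Lean. Of the 8 DIO samples, 7 lay at or above 2.70, and DIO 3 was the exception at 1.83. The difference was 0.70 ± 0.22 for DIO against Lean (limma adjusted p = 0.338), -0.51 ± 0.21 for DIO-R against DIO (limma adjusted p = 0.492) and 0.19 ± 0.22 for DIO-R against Lean. A second Cxcl12 probe, designed to another transcript, gave 0.46 for DIO against Lean and -0.05 for DIO-R against DIO, so the 2 probes disagree on DIO-R against DIO. Cxcr4 differed by -0.11 ± 0.16 and the scavenging receptor Ackr3 by 0.18 ± 0.09 for DIO against Lean, neither passing in limma.

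Fibroblast and matrix markers, which stromal cells share with Cxcl12, were higher for 9 of 10 genes in DIO than in Lean (median 0.27) and lower for 9 of 10 in DIO-R than in DIO (median -0.21), with none passing. Erythrocyte markers had the same signs, 6 of 6 higher in DIO than in Lean (median 1.13) and 6 of 6 lower in DIO-R than in DIO (median -1.05), with none passing. Adipocyte and skeletal muscle markers were lower in DIO-R than in DIO for 6 of 6 and 8 of 8 genes, with medians of -0.75 and -0.60 and none passing. Their part in the ligand values was not tested.

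Cxcl14, an epithelial ligand bright in all groups, had a lowest, median and highest value of 3.91, 4.25 and 4.38 in DIO-R, 2.49, 4.16 and 4.71 in DIO, and 4.04, 4.11 and 4.24 in Lean. The DIO samples alone were widely spread, and the differences of -0.16 ± 0.22 for DIO against Lean and 0.22 ± 0.21 for DIO-R against DIO had adjusted p-values of 0.886 and 0.712 in limma. Cxcl17, a ligand of mucosal epithelia, had a lowest, median and highest value of 2.70, 2.85 and 3.53 in DIO-R, 2.26, 2.88 and 3.36 in DIO, and 2.65, 3.09 and 3.30 in Lean, and its differences lay between -0.14 and 0.03. Cxcl16, the membrane-bound ligand of Cxcr6, ranged from -0.54 to -0.18 in DIO-R, -0.48 to 0.19 in DIO and -0.80 to -0.16 in Lean and differed by 0.20 ± 0.10 for DIO against Lean (limma adjusted p = 0.597). Cxcr6 itself, a receptor of resident T cells, differed by 0.70 ± 0.27 (limma adjusted p = 0.432).

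The interferon-induced ligands Cxcl9 and Cxcl10 were highest on the same 2 DIO arrays, both on slide 2, and neither passed in any comparison. These arrays, DIO 3 and DIO 10, were also the 2 highest DIO arrays for Ccl2, Ccl3, Ccl4, Ccl5 and Ccl17. For Ccl11 and Ccl19, DIO 3 was instead the lowest DIO array. Cxcl9 stood at -0.94 on DIO 3 and -0.95 on DIO 10, and between -5.42 and -4.40 on the other 6 DIO arrays. It ranged from -5.80 to -2.91 in DIO-R and from -6.37 to -4.68 in Lean, so those 2 DIO arrays were the highest of the 23. Cxcl10 stood at 2.17 on DIO 3 and 1.59 on DIO 10, with -0.35 on DIO 8 and -4.61 to -3.51 on the other 5 DIO arrays. In DIO-R it ranged from -4.52 to 0.52, the highest being DIO-R 5, also on slide 2, and in Lean from -4.68 to -2.38. The difference for DIO against Lean was 1.15 ± 0.65 for Cxcl9 and 1.28 ± 0.99 for Cxcl10 (limma adjusted p = 0.639 and 0.773). Within slides 1, 2 and 3 it was 0.37, 2.35 and 0.31 for Cxcl9 and -0.4, 3.22 and 0.84 for Cxcl10.

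With DIO 3 and DIO 10 left out, a choice made once their values were known, the Cxcl10 difference for DIO against Lean was -0.08. The difference for DIO-R against DIO was -0.39 ± 0.96 for Cxcl10 and -0.73 ± 0.63 for Cxcl9, and without these arrays it was 0.96 and 0.30. A second Cxcl9 probe, well above background on 7 arrays, gave 2.55 for DIO against Lean. Irf9, a transcription factor of interferon signalling, stood at 3.52 and 2.58 on DIO 3 and DIO 10, against 1.78 to 2.32 on the other 6 DIO arrays. It ranged from 1.61 to 2.77 in DIO-R and from 1.39 to 2.34 in Lean. Its highest DIO-R values, 2.77 on DIO-R 10 and 2.66 on DIO-R 5, were above that of DIO 10, while Cxcl10 stood at -4.01 on DIO-R 10 and 0.52 on DIO-R 5. Ifng, the inducer of Cxcl9, differed by -0.86 ± 0.34 for DIO-R against DIO (limma adjusted p = 0.483).

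**Figure D5:**
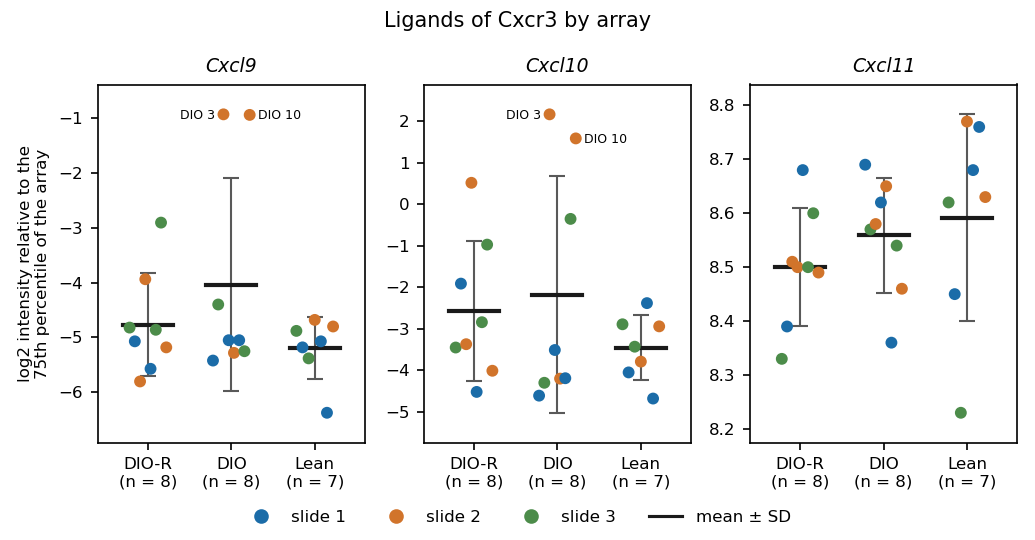
Level of Cxcl9, Cxcl10 and Cxcl11 in every array (y axis, log2 intensity relative to the array's 75th percentile), with DIO-R, DIO and Lean from left to right, points coloured by slide and bars for the mean ± SD. DIO 3 and DIO 10 stand above all other arrays for Cxcl9 (-0.94 and -0.95) and Cxcl10 (2.17 and 1.59), while Cxcl11 stays between 8.23 and 8.77 on every array.

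Cxcl11 had no such high arrays. It had a lowest, median and highest value of 8.33, 8.50 and 8.68 in DIO-R, 8.36, 8.57 and 8.69 in DIO, and 8.23, 8.63 and 8.77 in Lean, and correlated with Cxcl10 at r = -0.12 and rho = -0.21 (adjusted permutation p = 0.573 and 0.383), with -0.21, -0.50 and 0.23 within the slides and -0.09 without the 2 farthest samples. Its differences were -0.03, -0.06 and -0.09 for DIO against Lean, DIO-R against DIO and DIO-R against Lean. A second Cxcl11 probe, at chr5:92788640-92788699 beside the first at chr5:92788567-92788626, gave these same 3 values. No run of 20 of its bases recurred, but that screen counted exact runs and would miss altered copies. The equal values therefore do not show that either probe reads Cxcl11. Since the letters of the brighter probe recur in promoters and in other probes, its value cannot be assigned to Cxcl11 alone.

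The shared receptor Cxcr3 was -1.37 on DIO 10 and -3.06 on DIO 3, and differed by 0.51 ± 0.21 for DIO against Lean (limma adjusted p = 0.481). Of 12 T cell and NK cell markers tested, 6 were higher and 6 lower in DIO than in Lean, none passing, and the list's centred level reached 0.34 in DIO-R, 0.93 in DIO and 0.04 in Lean.

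Of the epithelial CC ligands, Ccl27a, made by keratinocytes to attract skin-homing T cells through Ccr10, had a lowest, median and highest value of 0.53, 0.85 and 1.09 in DIO-R, 0.83, 1.13 and 1.29 in DIO, and 0.54, 0.72 and 1.33 in Lean. All 8 DIO samples lay above the Lean mean, by 0.31 ± 0.12 on average (limma adjusted p = 0.427), and DIO-R against DIO differed by -0.27 ± 0.12 (limma adjusted p = 0.495). Its 3 probes gave 0.31, 0.20 and 0.03 for DIO against Lean, and near-identical copies of this gene on mouse chromosome 4 can share the signal. Ccl28, a ligand of Ccr10 made by mucosal and salivary epithelium, had a lowest, median and highest value of -4.51, -2.27 and -1.47 in DIO-R, -4.11, -2.92 and -0.87 in DIO, and -3.19, -1.74 and 0.41 in Lean. Its difference was -1.28 ± 0.53 for DIO against Lean (limma adjusted p = 0.471) and -0.92 ± 0.53 for DIO-R against Lean (limma adjusted p = 0.638), and the groups overlapped throughout.

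No correlation was detected between Ccl27a and Ccl28 (r = -0.14, rho = -0.10, adjusted permutation p = 0.573 and 0.637, with -0.20, -0.61 and 0.57 within slides and -0.18 without the 2 farthest samples). Ccr10 differed by 0.15 ± 0.28 and -0.52 ± 0.27 for DIO against Lean and DIO-R against DIO, not passing. Of 5 markers of von Ebner and salivary glands tested, 2 were higher and 3 lower in DIO than in Lean, and 5 of 5 were lower in DIO-R than in Lean, with a median of -0.29 and none passing. Ccl25, the Ccr9 ligand of thymus and gut, ranged from -1.75 to -0.88 over all arrays with differences between 0.02 and 0.11, while Ccr9 differed by -0.45 ± 0.12 for DIO against Lean (limma adjusted p = 0.238).

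Cx3cl1, the membrane-bound ligand of Cx3cr1 on monocytes and macrophages, had a lowest, median and highest value of 2.21, 2.36 and 2.62 in DIO-R, 1.99, 2.29 and 2.49 in DIO, and 2.09, 2.23 and 2.29 in Lean. Its difference for DIO-R against Lean was small, 0.17 ± 0.08 (1.13-fold, limma adjusted p = 0.521). Cx3cr1 differed by 0.46 ± 0.17 in that comparison and by 0.54 ± 0.17 for DIO against Lean (limma adjusted p = 0.413 and 0.34).

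The remaining ligands showed no unadjusted p under 0.05. The eosinophil attractants Ccl11 and Ccl24, which act on Ccr3, differed by 0.04 ± 0.30 and 0.11 ± 0.36 for DIO against Lean and by -0.07 ± 0.30 and -0.22 ± 0.36 for DIO-R against Lean. Ccl11 ranged from 1.18 to 2.72 in DIO-R, 1.17 to 3.03 in DIO and 1.11 to 2.88 in Lean, a spread within each group far above any difference of means. Ccl24 ranged from -4.31 to -2.36 in DIO-R, -3.99 to -1.89 in DIO and -3.68 to -1.74 in Lean. Ccl17, a Ccr4 ligand of dendritic cells, ranged from -1.21 to 0.75 in DIO-R, -1.39 to 0.27 in DIO and -1.49 to 1.25 in Lean and differed by 0.35 ± 0.37 for DIO-R against Lean. Ccl1, the Ccr8 ligand, ranged from -4.70 to -3.67 over all arrays, with differences of -0.08 to -0.01. A second Ccl1 probe was well above background on only 5 arrays. It gave 0.44 for DIO against Lean, 0.04 for DIO-R against DIO and 0.48 for DIO-R against Lean. Ccl19, which guides dendritic cells and T cells through Ccr7, ranged from 0.16 to 1.93 in DIO-R, 0.54 to 2.17 in DIO and 0.52 to 1.78 in Lean, with differences of -0.06 to 0.16 and near-identical copies on chromosome 4 that can share its signal.

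Ccr7 itself had the lowest adjusted p of a receptor for DIO-R against DIO, with -0.68 ± 0.20 (limma adjusted p = 0.397), and 0.73 ± 0.21 for DIO against Lean (limma adjusted p = 0.264). Of 14 conventional receptors tested, 0 passed in any comparison and 6, 1 and 3 had an unadjusted p under 0.05 for DIO against Lean, DIO-R against DIO and DIO-R against Lean. Over all genes the shares at that p were 8.95%, 9.72% and 8.94%, so the count for DIO-R against DIO was near that of all genes. The 6 for DIO against Lean were Ccr6, Ccr7, Cxcr3, Cxcr6 and Cx3cr1, all higher, and Ccr9, lower. The 3 for DIO-R against Lean were Ccr6, Cx3cr1 and Cxcr6, the last at 0.55 ± 0.27 (limma adjusted p = 0.558). Ccr6, the receptor of Ccl20, differed by 0.79 ± 0.35 for DIO against Lean and by 0.82 ± 0.35 for DIO-R against Lean (limma adjusted p = 0.506 and 0.497). DIO 10 was the highest array for both Ccr6 (-0.64) and Cxcr6 (1.45), and without it the difference of DIO from Lean was 0.51 for Ccr6 and 0.46 for Cxcr6. With normexp the Ccr6 difference was 0.42 for DIO against Lean and 0.34 for DIO-R against Lean, and that of Cxcr3 for DIO against Lean was 0.21, against 0.51 as reported. Of 5 atypical receptors, which bind ligands without signalling through G proteins, 0 passed and 0 had an unadjusted p under 0.05 in any comparison.

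The platelet ligands Pf4 and Ppbp fall outside the name rule. Ppbp, a Cxcr2 ligand once cleaved, differed by 0.89 ± 0.29 for DIO-R against DIO (limma adjusted p = 0.44), with a lowest, median and highest value of 2.75, 3.38 and 4.15 in DIO-R and 1.18, 2.81 and 3.41 in DIO. Of 14 inducers and signalling genes of inflammatory chemokines tested, 0 passed in any comparison, and 4, 1 and 1 had an unadjusted p under 0.05 for DIO against Lean, DIO-R against DIO and DIO-R against Lean, against the same 8.95%, 9.72% and 8.94% of all genes. The 4 were Irf1 (0.28 ± 0.13), Irf9 (0.49 ± 0.23), Nfkbia, the inhibitor of NF-kB that is also its target (-0.23 ± 0.07), and Rela, an NF-kB subunit (-0.17 ± 0.06), with limma adjusted p-values of 0.536, 0.547, 0.339 and 0.363. Ifng, dim as given above, was the 1 for DIO-R against DIO, and Nfkbia the 1 for DIO-R against Lean (-0.16 ± 0.07, limma adjusted p = 0.527). Tnf and Il1b, inducers of Cxcl1 and Cxcl2, differed by -0.05 ± 0.20 and -0.36 ± 0.27 for DIO against Lean, and Il6 and Ifnb1 were not well above background on enough arrays to be tested.

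Across the arrays, between 66.9% and 78.4% of probes were well above background, no spot was saturated, and pairs of arrays correlated between 0.96 and 0.991. The arrays lay on 3 slides of 8, 8 and 7, each with all groups. At an adjusted p under 0.05, 0.716% of genes (202) differed between slides and no ligand was called, with the lowest adjusted p of a ligand 0.0912 for Cxcl2 in limma. The unadjusted p of the limma F test for slide was 0.00229 for Cxcl2, 0.00785 for Ccl12 and 0.0238 for Ccl8. Slide effects on ligands are therefore not excluded.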

How the data were processed

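Signals came from 1-colour Agilent mouse arrays. Per the file headers, the deposited scanner intensity was made with Agilent Feature Extraction 10.10.1.1, which subtracts background spot by spot and does not scale arrays to each other; probe positions are mm9. The deposited log2 value table of the authors, whose steps are not given in the sources used here beyond the name limma in the submitters' processing notes, served as an alternative. Control and outlier-marked spots were left out, log2 intensity was set relative to the array's 75th percentile over spots other than controls, spots of a probe were averaged, and genes well above background on at least 7 of 23 arrays were tested. Groups were compared with limma 3.58.1 in R 4.3.3 (lmFit, eBayes, two-sided, 1 mean per group, all arrays), called at an adjusted p under 0.05, after a test on simulated data. Correlations used 100000 permutations of group-centred values, whose smallest possible unadjusted p is 1e-05. Every ligand was accounted for, and those with an unadjusted p under 0.05 or the 6 brightest probes were described in full. Members, lists and tests were chosen with earlier results of these data known. The number of arrays limits the precision. A few receptors and signalling genes are not reported here.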

Additional observations from a re-analysis of the deposited data

Results flagged for a closer look

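In 126 sets of values, those of 42 ligands, receptors and inducers in each of 3 groups, 12 had a sample whose gap to its nearest neighbour was large for the range of its group by Dixon's criterion. About 1 in 20 would be flagged by chance. No cause was tested for any of them.

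Of the DIO arrays, DIO 10 was set apart for Ccl8 (2.43, with the next highest DIO sample at 0.75), Ccr6 (-0.64) and Cxcr6 (1.45), each time as the highest DIO value. DIO 3 was lowest in its group for Cxcl12 (1.83) and Cx3cr1 (0.06) and highest for Irf9 (3.52). These are the 2 arrays with the highest Cxcl9 and Cxcl10, where a pair of high samples escapes a criterion for single ones.

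Of the DIO-R arrays, DIO-R 5 was lowest for Ccl28 (-4.51) and highest for Ccl3 (-2.21), and DIO-R 10 was highest for Cxcl17 (3.53). Of the Lean arrays, Lean 9 was lowest for Cxcl9 (-6.37) and Cx3cl1 (2.09), and Lean 7 was lowest for Ppbp (1.84). That Cxcl9 value lay under -5.589, the lowest value well above background on Lean 9, so it is a reading near background.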

How the results depend on the processing

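The count of ligands that passed stayed at 0 for DIO against Lean and for DIO-R against DIO under all 13 alternatives and with each array left out. For DIO-R against Lean the count of 2 became 1 with no filter on dim probes, 1 with the 2 groups fitted alone and 0 with the replicate block. It became 3, Cxcl13 being added, with probes well above background on all arrays of a group, with trend and robust eBayes, with array weights and without DIO 3 and DIO 10, and was 0 to 3 with each array left out. With normexp the count stayed at 2, but Cxcl13 passed (limma adjusted p = 0.0266) and Ccl3 did not (limma adjusted p = 0.24). For DIO-R against Lean Cxcl5 passed in 12 of 13 alternatives (-1.12 to -1.02), Ccl3 in 9 of 13 (0.31 to 1.1) and Cxcl13 in 5 of 13 (-2.38 to -1.67). The count of all genes moved from 1 for DIO against Lean to 2 with normexp, 9 in the authors' deposited table, 3 with slide as a block, 0 with the replicate block, 3 with trend and robust eBayes, 61 with array weights and 2 without DIO 3 and DIO 10. For DIO-R against DIO it moved from 17 to 27 with quantile normalization, 26 in the authors' table, 4 with the replicate block, 38 with array weights and 27 without DIO 3 and DIO 10. For DIO-R against Lean it moved from 36 to 9 with the replicate block and 110 with array weights. With each array left out, it ran from 1 to 37, 11 to 24 and 26 to 64 in these comparisons.

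Replicate numbers are shared by groups. Over 18 same-number pairs the correlations of deviations ran from -0.37 to 0.34, and 4 lay over 0.1. Whether the numbers pair the samples was not tested against pairs of different numbers. With the replicate block neither ligand passed for DIO-R against Lean, with Cxcl5 at -1.02 (adjusted p = 0.222) and Ccl3 at 1.1 (adjusted p = 0.278) in limma. Cxcl10 changed sign for DIO against Lean without DIO 3 and DIO 10 (-0.08). For DIO-R against DIO it did so without DIO 3 (0.23), without DIO 10 (0.15) and without both (0.96), and single omissions ran from -0.83 to 0.23. For DIO-R against Lean it did so with its second probe (-0.01), which was well above background on only 1 array. Cxcl9 changed sign for DIO-R against DIO without both arrays (0.30). The omission of the 2 arrays and the second probe were added after the data were seen. Their cause was not tested. Sign changes of ligands with no unadjusted p under 0.05 were counted apart and none of them passed. Signal over background limits the dim probes, and the offset of 50 used with normexp by itself shrinks their differences. These effects were not separated. With normexp the differences from Lean of Ccl3, Ccl4, Ccl7, Ccl12 and Ccl2 in DIO-R were 0.31, 0.28, 0.63, 0.34 and 0.62. Those of Ccl3, Ccl7, Ccl12, Ccl28 and Cxcl2 in DIO were 0.13, 0.47, 0.48, -0.77 and -0.21. Cxcl2 and Ccl3 stood at 0.17 and 0.18 for DIO-R against DIO. Over all alternatives Cxcl2 ran from 0.17 to 0.99 in that last comparison.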
